A study of Mus musculus with 4 samples.

Results

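The genes described here are 10 genes of the glutathione and Nrf2 antioxidant system: Gclc, Gclm, Gsta3, Gsta4, Gstm1, Gstm2, Nqo1, Hmox1, Txnrd1 and Srxn1. They were found by name, as every probe set whose only gene symbol in the platform annotation was that of a listed gene. This gave 21 of 34958 single-symbol probe sets, for 10 of 18194 named genes. The cells were mouse embryonic stem cells (CM7/1) made to overexpress Hey1 or Hey2, repressors of the basic helix-loop-helix class that act downstream of Notch. Cells with the first factor are the Hey1 line here, and cells with the second are the Hey2 line. Each was profiled on an array as an untreated control, called uninduced, and on an array after 1000 ng/ml doxycycline for 48 h, called induced. There is 1 array in each of the 4 groups, so a difference of 2 arrays has no replicate check. The labels name neither the promoter that drives each factor nor the number of clones or cultures. No array has doxycycline without a Hey factor, so an effect of the drug and an effect of the factor cannot be told apart.

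Glutathione is a small thiol that cells use to reduce peroxides and to conjugate reactive compounds. Its synthesis begins with glutamate-cysteine ligase, and glutathione S-transferases attach it to electrophiles. The transcription factor Nrf2, encoded by Nfe2l2, is held in the cytoplasm and degraded through Keap1. When reactive compounds modify Keap1, Nrf2 accumulates, pairs with small Maf proteins and binds antioxidant response elements near genes such as Nqo1, Gclm, Txnrd1 and Srxn1.

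The 4 arrays carry the defining genes of embryonic stem cells: all 12 markers of that list, among them Pou5f1, Sox2, Nanog and Zfp42, reached the level filter of 6.05, the median of all values on the log2 scale. Of the 12 fibroblast or feeder markers 3 reached it (Col1a2, Thy1 and Fn1). The summed linear level of that list ran from 3422.1 in the uninduced Hey1 line to 4719.6 in the induced Hey2 line, of which Fn1 alone made 2932.8 and 4308.4. Without Fn1 the sum ran from 411.2 in the induced Hey2 line to 586.4 in the induced Hey1 line. Thy1 was lower in the Hey2 line by -1.62 without and -2.07 with doxycycline. In the same comparisons Fn1 was higher in the Hey2 line by 0.22 and 0.48, and Col1a2 differed by 0.23 and -0.24. Of the endoderm list 5 of 12 markers reached the filter, of neuroectoderm 6 of 8, of mesoderm 4 of 7 and of trophoblast 5 of 8. Among these markers Sox1 of the neuroectoderm list read 8.14 and 7.35 in the Hey1 line and 7.05 and 5.98 in the Hey2 line, so it differed along both axes. The part of these markers in the differences below was not tested. Neither introduced factor read clearly higher at its own probe set on the array labelled induced. Between uninduced and induced arrays the Hey1 probe set differed by -0.23 in the Hey1 line and the Hey2 probe set by 0.09 in the Hey2 line, so the arrays do not check the labels. The Hey2 probe set read between 4.25 and 4.84 on the 4 arrays, below the filter on each. Below, "induced" means the array labelled so. The filter kept 12098 genes, and all 10 antioxidant genes passed it on every array.

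Promoter windows from RefSeq (GRCm38.p6, 250 bases before to 50 after a start site) were found for 7 of the 10 genes, 10 windows in all. They were searched on both strands for 2 forms of the core of the antioxidant response element, TGACNNNGC and TGAGNNNGC, which cannot overlap at the same position and strand. Of the 10 windows 4 held a match, those of Srxn1, Gclm, Gsta3 and Txnrd1 (its second start). Over all genes 27.8% of 32851 windows held either form. The 250 bases before these starts are shown because they hold the matches. The windows of Nqo1 and Gstm2, which like Srxn1, Gclm and Txnrd1 read higher in the Hey2 line, held none, nor did those of Gstm1. Capitals mark the matches, and each sequence runs 5′ to 3′ on the gene's strand, which is the plus strand for all 4 (chr2:152105274-152105523 for Srxn1, chr3:122245307-122245556 for Gclm, chr10:82858956-82859205 for Txnrd1 and chr1:21240335-21240584 for Gsta3).
Srxn1: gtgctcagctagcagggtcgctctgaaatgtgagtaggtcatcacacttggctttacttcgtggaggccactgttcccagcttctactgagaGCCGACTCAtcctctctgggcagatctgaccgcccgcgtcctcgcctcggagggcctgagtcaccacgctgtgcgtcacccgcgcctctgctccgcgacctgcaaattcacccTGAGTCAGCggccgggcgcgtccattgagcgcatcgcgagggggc
Gclm: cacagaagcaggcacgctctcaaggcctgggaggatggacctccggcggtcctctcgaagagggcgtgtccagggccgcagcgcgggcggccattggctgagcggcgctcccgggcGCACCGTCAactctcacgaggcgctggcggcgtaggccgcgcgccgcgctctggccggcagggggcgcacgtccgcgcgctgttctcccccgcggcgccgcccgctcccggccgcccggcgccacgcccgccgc
Txnrd1: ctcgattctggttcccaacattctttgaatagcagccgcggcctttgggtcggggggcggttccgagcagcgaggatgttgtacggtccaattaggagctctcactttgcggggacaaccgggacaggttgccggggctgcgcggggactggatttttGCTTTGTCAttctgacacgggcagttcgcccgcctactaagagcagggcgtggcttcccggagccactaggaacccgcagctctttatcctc
Gsta3: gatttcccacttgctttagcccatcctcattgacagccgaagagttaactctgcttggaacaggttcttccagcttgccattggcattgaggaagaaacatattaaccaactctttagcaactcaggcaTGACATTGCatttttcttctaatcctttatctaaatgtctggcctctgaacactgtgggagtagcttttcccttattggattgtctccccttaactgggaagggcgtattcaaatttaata
Counted from the start site, the match of Gsta3 began at base -121, that of Gclm at -134 and that of Txnrd1 at -92, both of the latter on the opposite strand. Srxn1 held matches at -158 (opposite strand) and at -45, and another beginning 29 bases into the transcript. The E-box CACGTG, a sequence that Hey factors are known to bind, was found in 0 of the 10 windows and in 7.15% of all windows. A match is a description of these letters and not a measured binding site.

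For most of the 10 genes the gap between the lines was wider than the gap between the arrays of a line. In 9 of the 10 genes, all but Hmox1, the difference of the uninduced arrays was larger in size than the difference within either line. The same held for 48.1% of all genes compared. The uninduced comparison shares an array with each line's difference. The median over the 10 genes on the log2 scale was 0.04 for Hey1 and 0.08 for Hey2 induction, beside -0.01 and -0.02 over all genes. For the uninduced arrays, Hey2 line minus Hey1 line, the median was 0.47 beside 0.03 over all genes, and for the induced arrays it was 0.42 beside -0.02. Both Hey2-line arrays read above both Hey1-line arrays for 8 of the 10 genes, a pattern shown by 27.4% of all genes. The reverse held for 1 gene, Gsta3, and for 26.6% of all genes. Of the 21 probe sets, 18 read higher in the Hey2 line without doxycycline and 17 with it. For 16 of them both Hey2-line values lay above both Hey1-line values. Probe sets of the same gene are not separate observations, and 6 of the 10 genes have several. The shares over all probe sets were not counted. The scaled median absolute deviation of the difference over all genes, a measure of its spread, was 0.16 in the Hey1 line, 0.22 in the Hey2 line and 0.29 between the uninduced arrays.

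**Figure D1:**
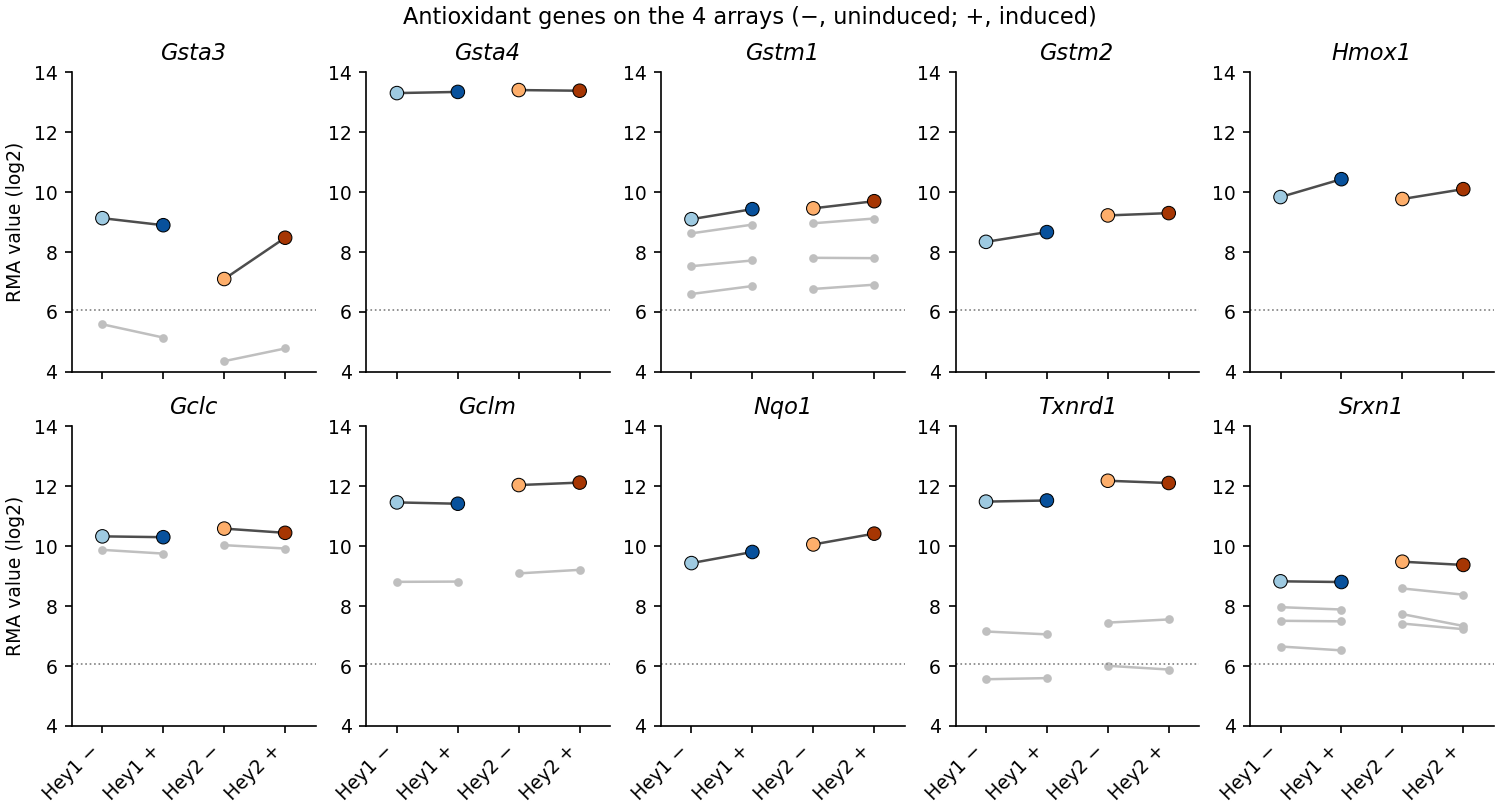
RMA value on the log2 scale (y axis) of each antioxidant gene on the 4 arrays (x axis; minus is uninduced, plus is induced). Coloured points are the probe set with the highest mean, grey points are other probe sets of the gene, lines join the arrays of a line and the dotted line is the level filter at 6.05. Gsta3 is low in the uninduced Hey2 line at 7.10, while Gclm, Txnrd1 and Srxn1 step up between the lines and are nearly level within each.

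At the 2-fold threshold, Gsta3 was the only antioxidant gene counted in any of these comparisons. In the Hey1 line 0 of the 10 genes differed by 2-fold, beside 0.471% of all genes. In the Hey2 line 1 did, beside 0.926% of all genes, and between the uninduced arrays 1 did, beside 1.96%. A threshold of 1.5-fold (0.585 on the log2 scale) was added after the values were seen. It counted Hmox1 in the Hey1 line (2.42% of all genes) and Gsta3 in the Hey2 line (5.48%). Between the uninduced arrays it counted 5 of the 10, with Gstm2, Txnrd1, Srxn1 and Nqo1 higher and Gsta3 lower in the Hey2 line, beside 8.92% of all genes. Gclm lay just under it at 0.579. With all probe sets of a gene averaged the 5 became 3, since Txnrd1 read 0.48 and Srxn1 0.57.

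**Figure D2:**
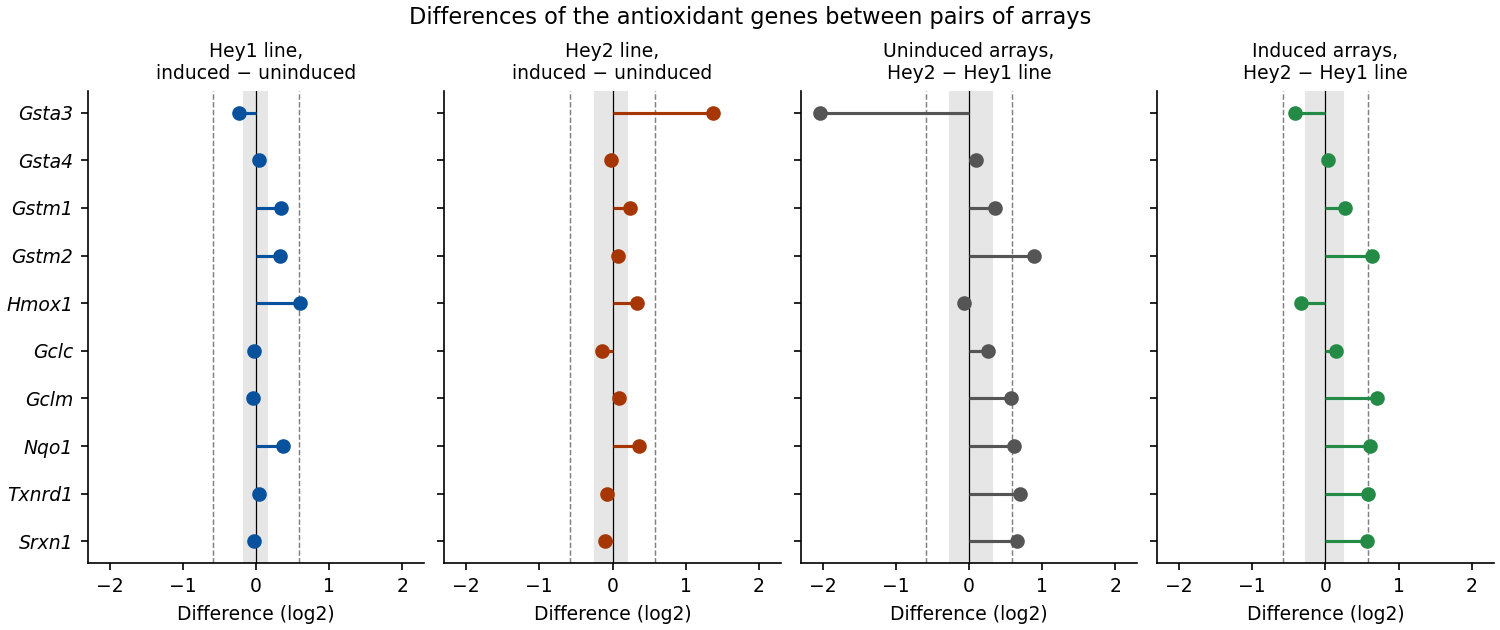
Difference on the log2 scale (x axis) for each antioxidant gene (rows) within the Hey1 line, within the Hey2 line, between the uninduced arrays and between the induced arrays. Dashed lines mark 1.5-fold and grey bands the median over all genes plus or minus 1 scaled median absolute deviation. Within the lines all points lie between -0.23 and 0.37 apart from Gsta3 in the Hey2 line (1.38) and Hmox1 in the Hey1 line (0.60), and between the lines 8 genes lie above 0 in both panels.

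Glutamate-cysteine ligase, the rate-limiting enzyme of glutathione synthesis, has a catalytic subunit encoded by Gclc and a modifier subunit encoded by Gclm. Gclm read 11.46 and 11.42 on the uninduced and induced arrays of the Hey1 line and 12.04 and 12.12 on those of the Hey2 line. The modifier subunit gene was thus higher on both Hey2-line arrays, by 0.58 without and 0.71 with doxycycline, and nearly level within each line (-0.04 and 0.08). Its other probe set gave the same direction with smaller gaps, 0.28 and 0.39. Gclc read 10.33 and 10.30 in the Hey1 line and 10.59 and 10.45 in the Hey2 line. The catalytic subunit gene differed by 0.26 between the uninduced arrays, less than the spread over all genes, and by -0.03 and -0.14 within the lines.

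Thioredoxin reductase and sulfiredoxin serve the thiol system parallel to glutathione. Txnrd1, which encodes the cytosolic reductase that keeps thioredoxin reduced, read 11.49 and 11.53 in the Hey1 line and 12.18 and 12.11 in the Hey2 line. Both Hey2-line values lay above both Hey1-line values, by 0.70 and 0.58, while the induced arrays differed from the uninduced ones by 0.04 and -0.08. The Hey1-line value turned to -0.0066 with the mean of the probe sets. Srxn1 encodes sulfiredoxin, which repairs over-oxidised peroxiredoxins, and read 8.83 and 8.80 in the Hey1 line and 9.48 and 9.37 in the Hey2 line. The gaps between the lines were 0.65 and 0.57, beside -0.02 and -0.11 within them. Of the 4 Srxn1 probe sets, 3 gave gaps of 0.50 to 0.77. The fourth (7.51 and 7.49, then 7.73 and 7.34) gave 0.22 without and -0.15 with doxycycline. Txnrd1 had 3 probe sets with gaps of 0.30 to 0.70 without and 0.29 to 0.58 with doxycycline, the probe set with the lowest level being below the filter.

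Nqo1 and Hmox1 encode the quinone reductase and the inducible haem oxygenase, both widely used as readouts of Nrf2. Nqo1 read 9.44 and 9.81 in the Hey1 line and 10.06 and 10.42 in the Hey2 line. Its differences were nearly the same in both lines and at both states: 0.37 and 0.36 on induction, and 0.62 and 0.61 between the lines. Hmox1 read 9.83 and 10.43 in the Hey1 line and 9.77 and 10.10 in the Hey2 line. The haem oxygenase gene had nearly the same value on both uninduced arrays (a gap of -0.07) and was higher on both induced arrays, by 0.60 and 0.33. In the Hey1 line its difference was the 216th highest of the 12098 genes, and in the Hey2 line the 1125th. Each of these genes has a single probe set.

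The glutathione S-transferases did not differ alike. Gsta3, of the alpha class, read 9.13 and 8.89 in the Hey1 line and 7.10 and 8.48 in the Hey2 line. The uninduced Hey2-line array stands apart: the other 3 arrays lie within 0.65 of each other, and this array lies 1.38 below the lowest of them. Between the uninduced arrays Gsta3 was 4.09-fold lower in the Hey2 line (-2.03 on the log2 scale), the 18th lowest of all genes. Within the Hey2 line it was 2.60-fold higher on the induced array, the 23rd highest, and within the Hey1 line it differed by -0.23. The gap between the lines' differences, 1.61, was the 3rd highest of all genes. The induced Hey2-line value remained below both Hey1-line values, so that against the uninduced Hey1-line array it read -0.65. The other Gsta3 probe set lay below the filter on all arrays (5.59 and 5.14, then 4.36 and 4.78) and put the arrays in the same order. It differed by -0.44 on Hey1 and 0.42 on Hey2 induction, and by -1.23 between the uninduced arrays. With the mean of both probe sets, the Gsta3 differences were -0.34, 0.90 and -1.63. RNA integrity was read from the 3′ minus 5′ difference of control probe sets, where a lower value means 5′ signal closer to the 3′ signal. On the uninduced Hey2-line array it was 0.67 for Tfrc, beside 0.84 to 0.96 on the other arrays. It was 0.39 for Actb (0.42 to 0.51 on the others), 0.01 for Gapdh (0.03 to 0.04) and 1.33 for Pcx (1.38 to 1.56). The part of RNA integrity in the Gsta3 result was not tested. The endoderm marker Sox7 read 6.03 and 6.51 in the Hey1 line and 5.44 and 6.62 in the Hey2 line. It was also lowest on the uninduced Hey2-line array, and both uninduced values lay below the filter. Other endoderm markers that reached the filter did not move alike. On the same array Apoa1 (6.07) was lowest, Ttr (7.17) and Sox17 (6.23) were highest and Amn (6.64) was neither. The summed linear level of the endoderm list lay between 686.9 and 731.6 on all arrays. The part of Sox7 was not tested either.

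Gsta4, an alpha-class enzyme known for conjugating products of lipid peroxidation, was nearly level, with 13.30 and 13.34 in the Hey1 line and 13.41 and 13.38 in the Hey2 line. The whole range over the 4 arrays was 0.10. The mu-class genes were both higher in the Hey2 line. Gstm2 read 8.34 and 8.66 in the Hey1 line and 9.22 and 9.30 in the Hey2 line. Its uninduced gap of 0.88 was the largest upward gap among the 10 genes, and the gap of the induced arrays was 0.63. Gstm1 read 9.10 and 9.43 in the Hey1 line and 9.46 and 9.70 in the Hey2 line. The induced Hey1-line value and the uninduced Hey2-line value were 0.03 apart, so the order of the lines rests on a narrow margin. The 4 Gstm1 probe sets gave 0.19 to 0.33 on induction in the Hey1 line and -0.01 to 0.24 in the Hey2 line. Genes of the mu class resemble each other in sequence, and the Gstm1 probe set used here carries the suffix that Affymetrix gives to sets whose probes can match other transcripts, so signal may be shared among them.

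No antioxidant gene passed the test of a response common to both lines. That fit (limma, with the line as a block, Benjamini-Hochberg adjustment over all genes) treats induction of Hey1 and of Hey2 as repeats of a treatment, and it called 0 of 12098 genes at an adjusted p of 0.05 (0%). At an unadjusted p of 0.05 it gave 835 genes as higher and 763 as lower, 13.2% of all genes. The mean difference of Hmox1 was 0.46 ± 0.10 (SE, n = 2 lines) with a limma adjusted p of 0.301. For Nqo1 it was 0.37 ± 0.08 (SE, n = 2 lines), also with a limma adjusted p of 0.301. For Gstm1 it was 0.29 ± 0.08 (SE, n = 2 lines) with a limma adjusted p of 0.331. These 3 were the antioxidant genes with an unadjusted p under 0.05. With eBayes set to a trended and robust prior, limma called 433 genes (3.58%), among them Hmox1 (adjusted p = 0.00864) and Nqo1 (adjusted p = 0.0167). Over all alternatives their adjusted p ran from those values up to 1.

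The line term of the same fit was read after the values were seen. It sets both arrays of the Hey2 line against both of the Hey1 line and so compares these 2 lines, whatever sets them apart. Of all genes 0.537% were called higher and 0.38% lower in the Hey2 line, and 0 of the 10 antioxidant genes were called, while 7 of them and 28.3% of all genes had an unadjusted limma p under 0.05. Gstm2 differed by 0.76 ± 0.10 (SE), Gclm by 0.64 ± 0.09, Txnrd1 by 0.64 ± 0.08, Nqo1 by 0.62 ± 0.08 and Srxn1 by 0.61 ± 0.08, each over 2 arrays per line. These SE rest on the gap between the lines' differences and not on replicates. The limma adjusted p of these 5 genes lay between 0.0553 and 0.0561, just past the threshold. Each of the 5 was under it in 4 or 5 of 6 alternatives, and their limma adjusted p ran from 1.22e-05 to 0.08 over all of these. The alternatives in which they passed called 506 to 2933 genes of all, beside 111 in the main fit. The calls thus widened over all genes and not only for these 5. Gsta3 differed by -1.22 ± 0.42 (SE) with a limma adjusted p of 0.163 and was called in 0 of 6. At 1.5-fold in both the uninduced and the induced arrays, 2 of the 10 genes (Gstm2 and Nqo1) were higher in the Hey2 line, beside 2.41% of all genes.

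**Figure D3:**
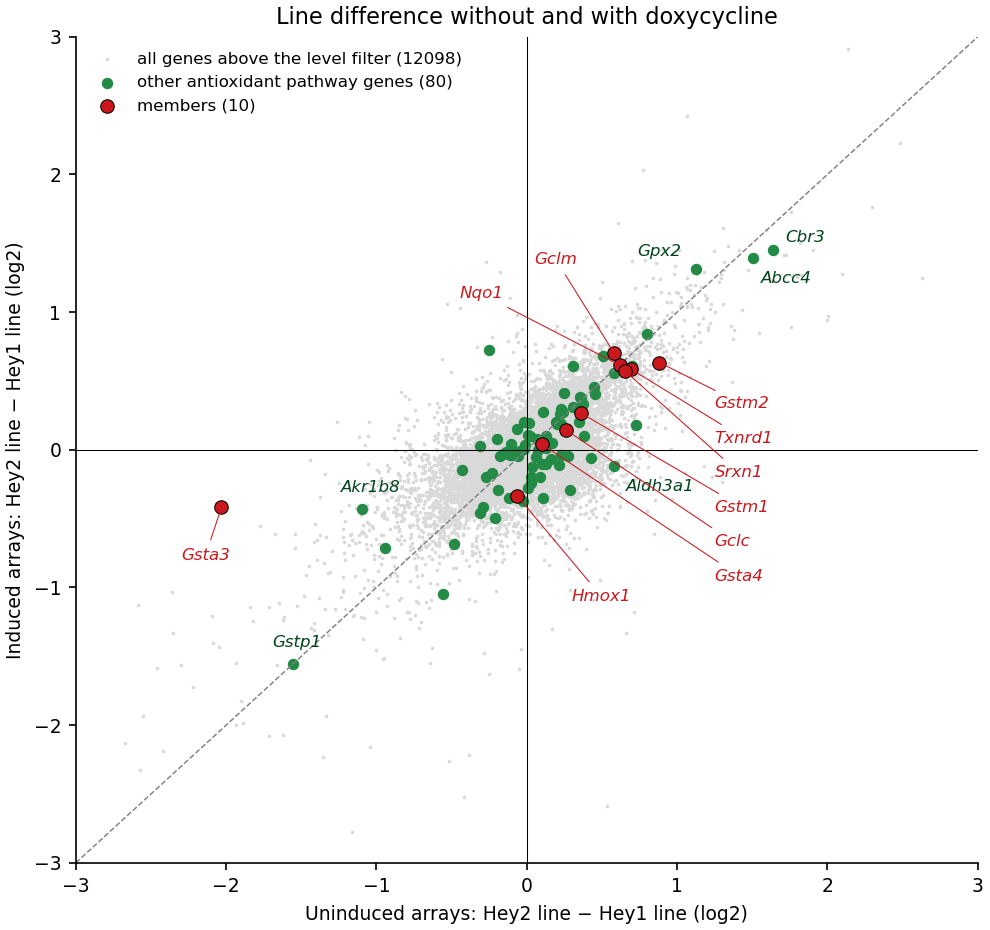
Difference between the lines on the log2 scale for the uninduced arrays (x axis) and the induced arrays (y axis), which share no array. Red points are the 10 antioxidant genes, green points the 80 other pathway genes and grey points all genes compared, of which 9 lie outside the axes; the dashed line marks equal differences. Gclm, Txnrd1, Srxn1, Nqo1 and Gstm2 sit close together near the dashed line, and Gsta3 lies far from it at -2.03 and -0.42.

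The rest of the pathway was described from 9 lists with 98 entries, of which 80 genes passed the level filter and 9 with a probe set of their own did not. In the Hey1 line 0 of the 80 differed by 2-fold, beside 0.471% of all genes. In the Hey2 line 1 was lower, beside 0.926% of all genes at 2-fold either way. Between the uninduced arrays 3 were higher and 2 lower in the Hey2 line, beside 1.96% of all genes either way. The medians over the 80 were -0.01, -0.03 and 0.08, beside -0.01, -0.02 and 0.03 over all genes. In the common-response fit of limma 0 of the 80 passed, with 15 at an unadjusted p under 0.05 (13.2% of all genes) and 4 called with the trended robust prior (3.58% of all genes). Those 4 were Cbr3, Gstt2, Gstm3 and Bach1. By the line term 3 passed as higher in the Hey2 line (0.537% of all genes) and 1 as lower (0.38%). The 4 called by the line term also passed in all 6 alternatives. At 1.5-fold in both the uninduced and the induced arrays, 5 of the 80 were higher in the Hey2 line (2.41% of all genes). By the same rule 2 were lower (199 of the 12098 genes). Gstz1 (0.80 and 0.84), Pgd (0.70 and 0.61) and Sesn1 (-0.94 and -0.72), named after their values were seen, were among these. Their limma adjusted p by the line term lay between 0.05275 and 0.05528.

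The 4 genes called by the line term were a peroxidase, a carbonyl reductase, an export pump and a transferase gene. Gpx2, which encodes the gastrointestinal glutathione peroxidase, read 8.72 and 8.42 in the Hey1 line and 9.84 and 9.74 in the Hey2 line, a line difference of 1.22 ± 0.09 (SE). Cbr3, a carbonyl reductase gene, read 10.87 and 10.40 and then 12.51 and 11.84, a line difference of 1.54 ± 0.09 (SE). Abcc4, which encodes an organic anion efflux pump, read 10.26 and 10.12 and then 11.76 and 11.52, a line difference of 1.45 ± 0.08 (SE). Gstp1, the pi-class transferase gene, went the other way, with 13.50 and 13.45 in the Hey1 line and 11.95 and 11.90 in the Hey2 line, a line difference of -1.55 ± 0.08 (SE). Each had a limma adjusted p of 0.0439, the lowest that fit gave. Within the lines Gstp1 differed by -0.05 and -0.04 and Abcc4 by -0.14 and -0.25. Cbr3 was lower on both induced arrays, by -0.48 and -0.67, with a limma adjusted p of 0.265 in the common response (0.000559 to 1 over the alternatives).

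All 11 genes of the list of Nrf2 and its regulators passed the level filter, and 0 differed by 2-fold within a line or between the uninduced arrays. Their median was -0.08 in the Hey1 line, -0.11 in the Hey2 line and 0.20 between the uninduced arrays. Nfe2l2 (chosen for its role after its values were seen) read 11.41 and 11.36 in the Hey1 line and 11.66 and 11.77 in the Hey2 line. Keap1, chosen in the same way, read 8.88 and 8.80 and then 9.25 and 9.14. The genes of the factor and its inhibitor were thus both higher on the Hey2-line arrays, by 0.24 to 0.41 and by 0.33 to 0.37. The same order of arrays was shown by 27.4% of all genes. For Nfe2l2 the uninduced gap of 0.24 was less than the spread over all genes, 0.29. Neither gene passed the line term, with a limma adjusted p of 0.12 for Nfe2l2 and 0.0968 for Keap1. Bach1, which encodes a repressor that competes with Nrf2 at antioxidant response elements, was lower on both induced arrays by -0.55 and -0.24, and its other probe set gave -0.26 and -0.29. For Bach1 the limma adjusted p of the common response was 0.32, and 0.0287 with the trended robust prior. Mafk, a small Maf partner gene, differed by -0.20 and -0.43.

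Among the other transferases, of which 15 of 18 with their own probe set passed the filter, the mu-class gene Gstm3 had the largest mean difference over both lines, with 0.996 (Hey1 line) and 0.51 (Hey2 line). Its weaker probe set, below the filter, gave 0.38 and 0.51. Gstt2, of the theta class, was lower on both induced arrays by -0.43 and -0.69. In the list of glutathione synthesis and recycling, the largest mean differences were those of Glrx, a glutaredoxin gene (0.21 and 0.50), and Chac1, which encodes a glutathione-degrading enzyme (0.17 and 0.38). Among the peroxidases it was Gpx8 (0.32 and 0.29). None of these 5 genes passed the common-response test in the main fit, where their limma adjusted p lay between 0.278 and 0.373. With the trended robust prior limma called Gstt2 (adjusted p = 0.00455) and Gstm3 (adjusted p = 0.0115), beside 3.58% of all genes.

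Within the lines, the remaining lists held few differences of size. In the quinone, aldehyde and carbonyl list, Aldh3a1, an aldehyde dehydrogenase gene, differed by -1.05 in the Hey2 line, from 6.39 to 5.34, so the lower value lies below the filter. Akr1b8, an aldo-keto reductase gene, read 10.31 and 10.38 in the Hey1 line and 9.21 and 9.95 in the Hey2 line. Like Gsta3, it was lowest on the uninduced Hey2-line array, by 0.74 below the induced one. The sestrin genes Sesn2 (-0.21 and -0.20) and Sesn3 (-0.06 and -0.39), the superoxide dismutase genes Sod1 (-0.07 and -0.05) and Sod2 (-0.17 and -0.09), the NADPH genes Me1 (0.13 and 0.31) and Pgls (-0.06 and -0.11), the biliverdin reductase gene Blvra (0.03 and 0.31) and the iron exporter gene Slc40a1 (0.27 and 0.27) had the largest mean differences of their lists. All of these lay under 1.5-fold in both lines at the probe set used. Slc40a1 reached the filter on 1 array only, and its other probe set, below the filter, gave 0.65 and -0.01. The other Sesn3 probe set gave -0.43 and -0.46. Of genes named after their values were seen, Ephx1 of the quinone, aldehyde and carbonyl list was lower on both induced arrays, by -0.60 and -0.45. Its limma adjusted p in the common response was 0.2645. Cat, the catalase gene, was higher in the Hey2 line by 0.73 without and 0.18 with doxycycline.

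**Figure D4:**
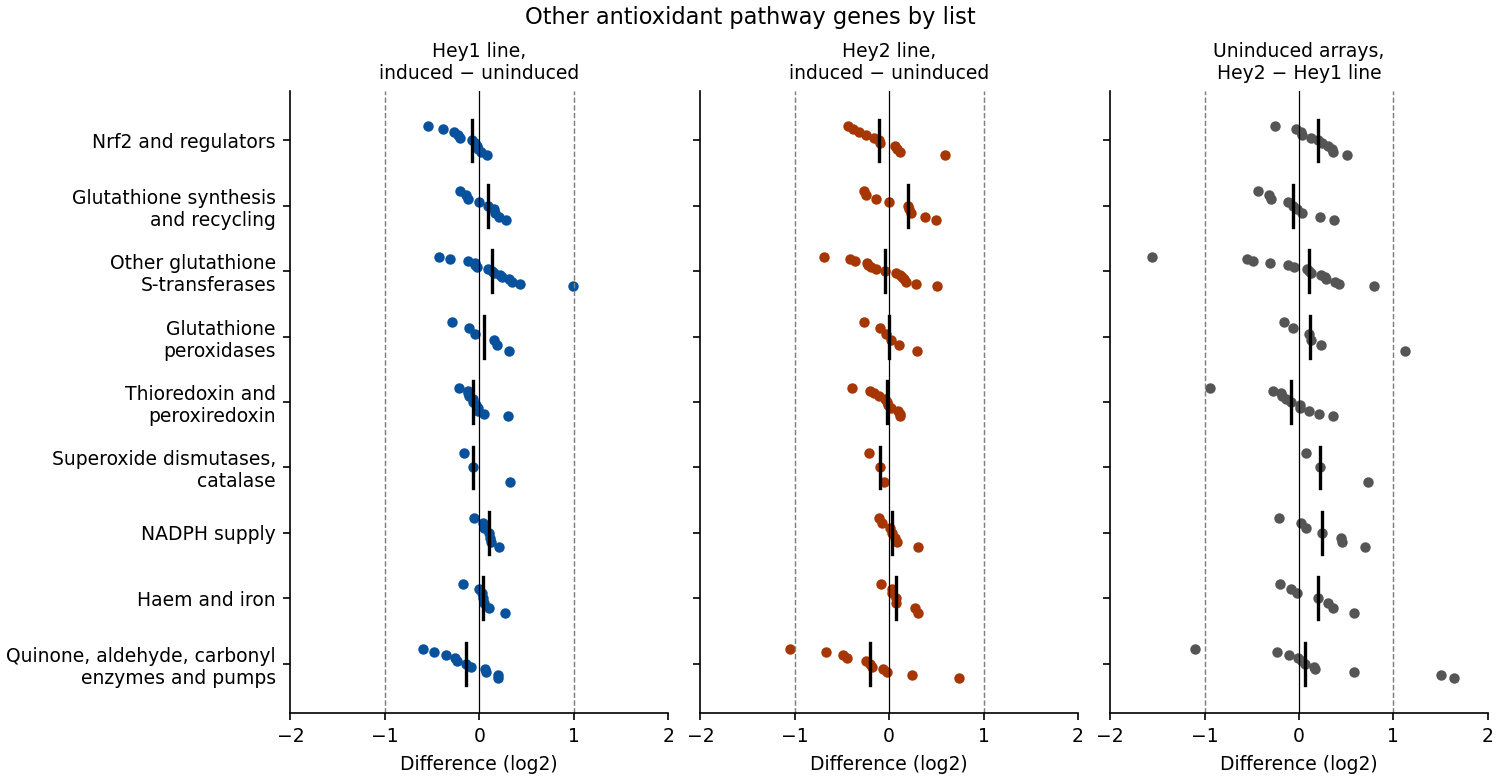
Difference on the log2 scale (x axis) of the 80 other pathway genes by list (rows), within the Hey1 line, within the Hey2 line and between the uninduced arrays. Each point is a gene, black bars are list medians and dashed lines mark 2-fold; the only point past 2-fold within a line is Aldh3a1 at -1.05 in the Hey2 line, and 5 points pass it between the uninduced arrays.

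The genes whose pattern was most like that of Gsta3 were sought over all 12098 genes by the Euclidean distance of 3 differences, those of the Hey1 line, the Hey2 line and the uninduced arrays, on 4 arrays in all. The 5 nearest were Scn2b (distance 0.52), Prss35 (0.58), Cntnap2 (0.68), Zfp182 (0.69) and Timm8a2 (0.73). Scn2b read 6.87 and 7.04 in the Hey1 line and 4.77 and 5.84 in the Hey2 line. All 5 were lowest on the uninduced Hey2-line array, as follows from the way they were chosen. Unlike Gsta3 they differed upward in the Hey1 line, by 0.11 to 0.22.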

How the data were processed

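Total RNA was hybridised to 4 Affymetrix arrays of 1 colour, 1 per group, with groups taken from the labels. RMA gave the deposited log2 values, 1 per probe set, per the submitters' processing notes; its version and chip description file were not given in the sources used here. All arrays share a single distribution (sorted values within 0.0024), so a shift of all genes together cannot be seen, and precision is limited by having 4 arrays. A gene was represented by the single-symbol probe set with the highest mean and compared if its highest value reached 6.05. Differences are log2 values subtracted between arrays. Levels are not compared between genes. The fit was also run on data simulated from its own model, which cannot show whether that model holds for these arrays. The common response and the line term were fitted by lmFit and eBayes of limma 3.58.1 under R 4.3.3 (1 residual degree of freedom per gene). That residual is the gap between a gene's differences in the lines, and eBayes draws its spread toward a value shared by all genes. For a gene with a small gap, such as Nqo1, the SE is thus mostly that shared value. Nothing states that the arrays came from separate cultures. The p-values and SE thus rest on that gap and not on replicates, and the gap may be technical. Python 3.11.15 with pandas 2.3.3 and matplotlib 3.10.9 did the rest.

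The members and lists were chosen with earlier results of these data known. Named genes were all members, list genes past 2-fold in either line or between the uninduced arrays, the 2 with the largest mean difference per list, and the 5 genes most like Gsta3. The alternatives were the mean of probe sets, no filter, a filter at the 75th percentile, cyclic loess, 32 added to the linear values, the other line's uninduced array as reference, a trended robust prior and no line term. Of the 98 list entries, 9 had no single-symbol probe set and were not analysed here.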

Additional observations from a re-analysis of the deposited data

Results flagged for a closer look

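Gsta3 differed in opposite directions in the lines, with -0.235 for Hey1 and 1.378 for Hey2, each larger than the scaled median absolute deviation of its comparison. The same pattern was seen in 1 of the 10 antioxidant genes, in 3 of the 80 other pathway genes and in 3.2% of all genes compared. The 3 pathway genes, named after their values were seen, were Bach2 (-0.38 for Hey1 and 0.59 for Hey2), Gpx3 (0.19 and -0.27) and Gsto1 (0.16 and -0.41). The difference between the lines was not tested, since all 4 arrays enter it.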

How the results depend on the processing

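Of the 50 differences of the 10 antioxidant genes over 5 comparisons, 49 kept their sign under the filters, the mean of probe sets, cyclic loess and the offset; the exception was Txnrd1 in the Hey1 line (0.04 and -0.0066). With the other line's uninduced array as the reference, Gsta3 in the Hey2 line reversed to -0.65. The sign changed for 6 of the 10 antioxidant genes in the Hey1 line, among them Gsta3 (1.80), Gstm2 (-0.56) and Nqo1 (-0.25), and for 5 in the Hey2 line, among them Txnrd1 (0.62) and Srxn1 (0.55), since this reference adds the difference between the lines. With it the antioxidant genes at 1.5-fold became 5 for Hey1 and 6 for Hey2, from 1 in each. That setting gave 387 and 229 genes of all at 2-fold, from 57 and 112. The offset left 0 antioxidant genes at 1.5-fold in the Hey1 line, and the mean of probe sets left 3 of 5 between the uninduced arrays. The stricter filter and the offset lowered the counts at 2-fold over all genes, to 24 and 33 for Hey1, 46 and 52 for Hey2, 124 and 139 between the uninduced arrays (from 237), 95 and 117 between the induced arrays (from 195), and 22 and 33 for the gap between the lines' differences (from 81, and 131 without the filter). The common response had 4 calls with the stricter filter and 433 with the trended robust prior, which called 2 antioxidant genes; without the line term (no replicate block) it had 0. The labels give no replicate numbers. The line term had 111 calls. It had 554 with the mean of probe sets, 1864 with the stricter filter, 506 with cyclic loess, 1130 with the offset and 2933 with the trended robust prior. The antioxidant genes called by it were then 2, 6, 5, 5 and 6, from 0. The cause of these shifts was not tested. Values near the filter, such as those of Aldh3a1, are limited by signal over background.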
